A study of Mus musculus with 86 samples.

Results

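Neurofilament and other intermediate filament RNAs were followed here as 7 genes, chosen by name: Nefl, Nefm and Nefh (the light, medium and heavy neurofilament subunits), Ina (alpha-internexin), Prph (peripherin), Nes (nestin) and Vim (vimentin). Each gene is the sum of its transcripts in mouse GENCODE, and the group is 7 of 53664 genes with at least 1 transcript in the files. In GRCm38, Nefl (ENSMUSG00000022055) lies on chromosome 14 from 68083863 to 68089095 on the plus strand, and Nefm (ENSMUSG00000022054) from 68082590 to 68124846 on the minus strand, so that these 2 genes overlap on opposite strands. Nefh (ENSMUSG00000020396) lies on chromosome 11 from 4938754 to 4948064, minus strand, and Ina (ENSMUSG00000034336) on chromosome 19 from 47014698 to 47025327, plus strand. Prph (ENSMUSG00000023484) lies on chromosome 15 from 99055174 to 99058978, Nes (ENSMUSG00000004891) on chromosome 3 from 87971078 to 87980451, and Vim (ENSMUSG00000026728) on chromosome 2 from 13573927 to 13582826, all on the plus strand.

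Neuronal intermediate filaments are built from Nefl or Ina with Nefm and Nefh, whose long tails set the spacing of filaments in axons. Prph joins them in peripheral and injured neurons, whereas Nes and Vim form the filaments of neural precursors and of cells in culture. TDP-43, the RNA-binding protein encoded by Tardbp, is lost from the nucleus in most amyotrophic lateral sclerosis (ALS), neurofilament mRNAs are among the RNAs it is reported to bind, and neurofilament protein in body fluids serves as a marker of axon damage.

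The study asked how RNA is placed in neurites when TDP-43 is lost or mutated. Polyadenylated RNA was sequenced from soma and neurites that had been separated on membranes with pores that neurites, but not cell bodies, grow through. The lines were CAD, a mouse catecholaminergic line of central origin, and N2A, a mouse neuroblastoma line. There were 36 libraries in 12 groups of 3 cultures.

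In CAD and in N2A, endogenous TDP-43 had been inactivated with CRISPR and replaced with a single tagged copy that doxycycline (dox) switches off. Without dox this copy was expressed (wild-type); with dox, given in the labels as 2 µg/mL for 48 h (the study's methods give another dose), it was off (knockout). Genotype and dox can therefore not be told apart, and each line is a single-cell clone. In the third experiment, CAD cells with the endogenous TDP-43 gene intact carried an added TDP-43 transgene, WT or with the ALS mutation Q331K. The transgene was switched on by dox in both groups, and those groups are different cell lines. The study reports that this induction lowered expression from the endogenous alleles.

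Total estimated counts per library were 25009904 to 32895542 in CAD, 22726534 to 31911030 in N2A and 9783050 to 15870647 in the transgene experiment. Group medians in CAD were 29481294 (wild-type soma), 31174333 (wild-type neurite), 29902189 (knockout soma) and 28343155 (knockout neurite). In N2A they were 23683507, 29163832, 29136016 and 28648873 in the same order. In the transgene experiment they were 13984487 (WT soma), 14911893 (WT neurite), 14390573 (Q331K soma) and 14291366 (Q331K neurite). A limit of 3 counts came to 0.0913 to 0.307 CPM (counts scaled to a common library size) per library. Such limits, and the intervals below, cover counting error or the spread of 3 cultures only, since reads were not marked by molecule. In bulk libraries, fewer cells with an RNA and less RNA per cell cannot be told apart.

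Tardbp (ENSMUSG00000041459, chromosome 4, 148612382 to 148627019, minus strand) was checked in every library. In CAD soma it stood at 668.9, 1002 and 981.5 TPM (a length-corrected share of the library) in wild-type and at 115, 134 and 159 TPM in knockout. In CAD neurites the values were 194, 259 and 330.5 TPM against 82.0, 82.1 and 77.4 TPM. No knockout library reached a wild-type library of its compartment. The same held in N2A, with 756, 880.5 and 982 TPM against 238, 235 and 262.5 TPM in soma and 241, 445 and 435 TPM against 104, 195 and 173.5 TPM in neurites. The log2 change was -2.52 in CAD soma (adjusted p 3.35e-12), -1.89 in CAD neurites (3.92e-11), -1.78 in N2A soma (2.58e-09) and -1.41 in N2A neurites (1.59e-08), by edgeR's quasi-likelihood test with Benjamini-Hochberg adjustment over all tested genes. In the transgene experiment, Tardbp was 1377, 1453 and 1456 TPM in Q331K soma and 1466, 1529 and 1260.0 TPM in WT soma, which overlap. In the neurites there it was 820.0, 819 and 706 TPM with Q331K and 832, 723.5 and 723 TPM with WT.

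Nefl, the subunit from which neurofilaments are assembled, was not detectable at this depth. It had 0 counts in 26 of 36 libraries and never more than 3, with 18 counts over all libraries and a highest level of 0.15 TPM. Nefm had 0 counts in 14 of 36 libraries and 67.5 in all. Its highest count, 12, was in a CAD wild-type neurite library, where the cultures gave 1, 12 and 8 counts (mean 7 ± 5.57, SD, n = 3), and its highest level was 0.0588 TPM. Part of the Nefm annotation overlaps Nefl on the other strand, so that the source of these few reads is uncertain. Neither gene passed the filter on low counts in any experiment, and no fold change or ratio is given for them. The 5 other members were tested in every comparison, with 1809 to 9456 estimated counts per library for Nefh, 2410 to 10156 for Ina, 7073 to 83879 for Prph, 580 to 115044 for Nes and 5226 to 30868 for Vim. Ina overlaps Nt5c2 on the opposite strand, which reached 54.8 TPM.

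Prph was the most abundant member in all 12 groups. In wild-type soma it stood at 1149 ± 210 TPM in CAD (934.5, 1157 and 1355) and at 1727 TPM in N2A (1556, 1689 and 1936), with no overlap. It made up 59.2% of the summed TPM of the 7 genes in CAD wild-type soma and 75.6% in N2A wild-type soma. Vim was the next in every group but CAD wild-type neurites, with 564 ± 139 TPM in CAD wild-type soma and 449 TPM in N2A wild-type soma. Ina ranked 3 in every soma group: 154.5 TPM in CAD wild-type (119, 164 and 181) and 57.8 TPM in N2A wild-type (47.3, 62.6 and 63.5). Nefh, which gives neurofilaments their longest tails, was at 61.2 ± 10.96 TPM in CAD wild-type soma and 24.6 TPM in N2A wild-type soma.

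Nes, the filament gene of neural precursors, was the lowest of the 5 in every CAD soma group, at 19.2 ± 3.99 TPM in wild-type, yet in CAD wild-type neurites it was at 317.5 ± 73.5 TPM. The libraries read 15.5, 18.5 and 23.4 TPM in soma and 235, 375 and 343 TPM in neurites. There its range overlapped that of Vim (225, 329 and 360.0 TPM), and Nes was the higher of the 2 in 2 of 3 libraries. Nes rose from 0.984% of the summed TPM of the group in CAD wild-type soma to 24.2 ± 2.06% in neurites, while Prph went from 59.2% to 45.3%. In N2A the levels of Nes were 24.2, 27.9 and 31.3 TPM in wild-type soma and 7.06, 15.5 and 12.3 TPM in wild-type neurites. Nes and Nefh overlapped in N2A wild-type soma and in both N2A neurite groups, and Ina and Nefh overlapped in CAD neurites, so their order there is not set beyond the spread. Ina was the higher of that pair in 3 of 3 libraries of each CAD neurite group. Nes was above Nefh in 3 of 3 libraries of N2A wild-type soma and in 2 of 3 of N2A knockout neurites. Nefh was above Nes in 3 of 3 libraries of N2A wild-type neurites.

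**Figure D1:**
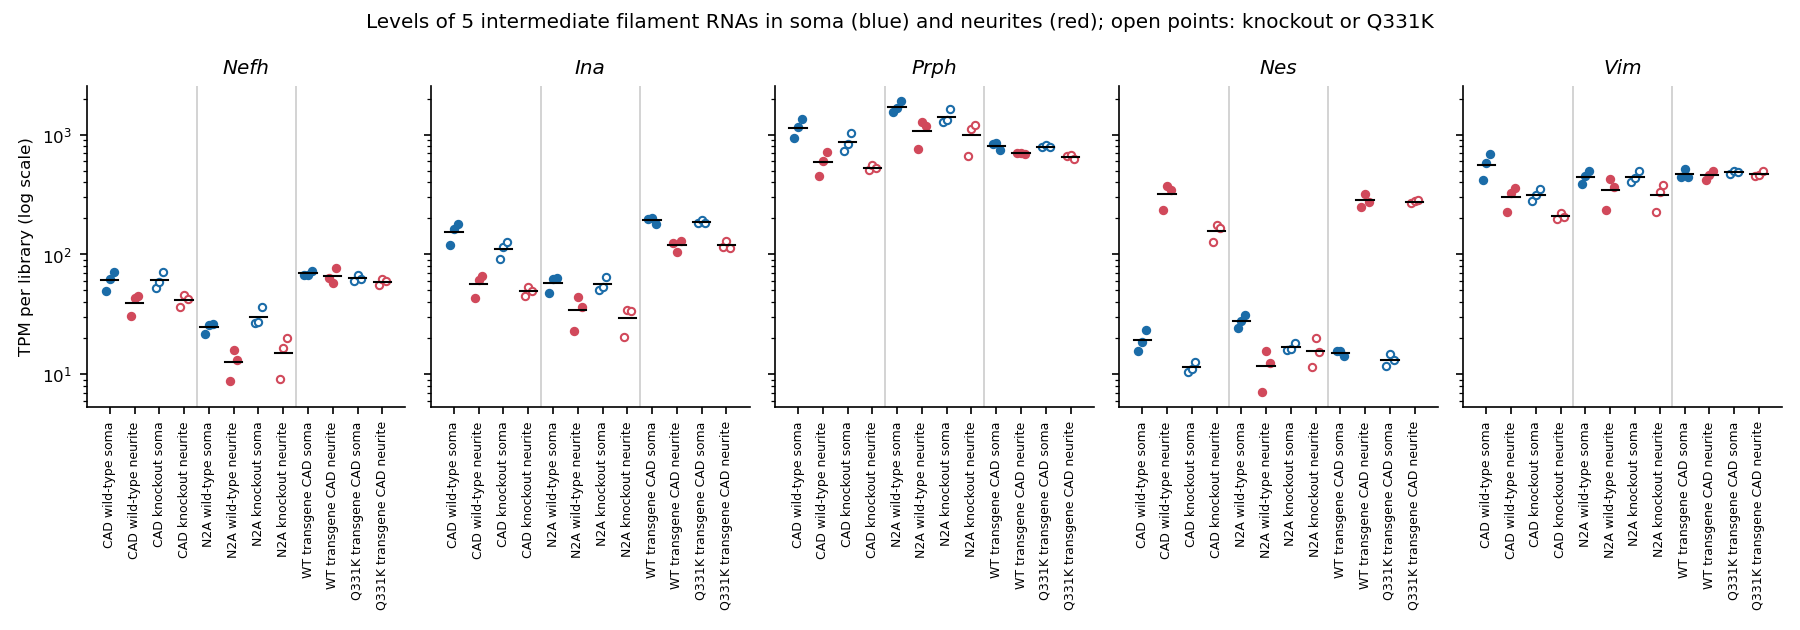
Level of the 5 detected members in each library (points; log axis, TPM) with group means (lines), soma in blue, neurites in red, and knockout or Q331K as open points. Nes is at 317.5 TPM in CAD wild-type neurites against 19.2 TPM in soma, while in N2A wild-type it is at 27.8 TPM in soma and 11.6 TPM in neurites.

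The first comparison asked which members were relatively more abundant in neurites than in soma of wild-type cells, as the log2 ratio of neurite over soma (LR). In CAD all 5 tested members were called higher in neurites at an FDR of 0.01; of all 17343 tested genes, 41.4% were called in either direction. Nes had an LR of 5.76 (SE 0.155, adjusted p 3.37e-13 by edgeR's quasi-likelihood test with Benjamini-Hochberg adjustment), a ratio of 54.3, and it ranked 8 of 17343 from the highest. By culture its LR was 5.80, 6.06 and 5.38. Nefh followed with 1.12 (4.09e-08), then Vim with 0.89 (2.74e-07), Prph with 0.76 (7.22e-07) and Ina with 0.29 (0.00841), each above 0 in 3 of 3 cultures.

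These ratios are relative to the other genes, because the libraries were scaled with edgeR's TMM, under which the median gene lies near 0. With plain TPM the median LR of the tested genes was -1.59 in CAD wild-type, and the LR was negative for Nefh (-0.63), Ina (-1.44), Prph (-0.96) and Vim (-0.89), while Nes stayed at 4.04. Measured from that median, an alternative chosen after seeing the data, the TPM ratios were 0.95, 0.15, 0.63, 0.70 and, for Nes, 5.62. The neurite libraries differed in makeup: the mean effective transcript length weighted by TPM was 609 bases in CAD wild-type neurites and 1258 bases in soma, and mitochondrial genes took 16.8% and 10.4% of TPM. In CAD knockout these genes took 17.3% in neurites and 11.8% in soma. In N2A they took 5.45% in neurites and 11.2% in soma of wild-type, and 12.6% and 16.75% in knockout. With library totals and no scaling factor, an alternative chosen after seeing the data, Ina reversed to -0.39, and Prph (0.08) and Vim (0.21) were no longer called, whereas the median of all genes was -0.69.

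The call for Ina in CAD rested on single libraries. Its adjusted p rose above 0.01 without wild-type neurite 1 (0.0178), 2 (0.0335) or 3 (0.0104), without knockout neurite 1 (0.0128), 2 (0.0102) or 3 (0.011), without wild-type soma 1 (0.0477) or 2 (0.0279), and without knockout soma 3 (0.0126), over a range of 0.00472 to 0.0477 for all 12 omissions. With upper-quartile scaling it was 0.0247, and without the filter on low counts 0.0163. Its LR stayed between 0.24 and 0.35 when libraries were left out.

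In CAD cells with the WT transgene Nes was again highest and Ina lowest: Nes 5.21 (adjusted p 1.74e-12 by edgeR's quasi-likelihood test with Benjamini-Hochberg adjustment, 8 of 13940 from the highest, a ratio of 36.9), Vim 0.97, Nefh 0.92, Prph 0.76 and Ina 0.29 (0.00234). All 5 tested members were called, against 27.5% of all tested genes, and each was above 0 in 3 of 3 cultures. Ina was not called without WT transgene soma 3 (LR 0.24, adjusted p 0.0131), over a range of 0.00221 to 0.0131 for all omissions, or without the filter on low counts (0.27, 0.016). Prph was not called with library totals (0.23, 0.0376). On plain TPM, where the median gene was at -0.97, Ina (-0.70, SD 0.239) and Prph (-0.21, SD 0.089) were negative. The means of Nefh (-0.08, SD 0.141) and Vim (-0.02, SD 0.168) lay nearer to 0 than their SD. With library totals Ina was at -0.24.

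In N2A wild-type cells 4 of the 5 tested members were called higher in neurites, against 59.2% of all tested genes. Vim had the highest LR, 1.20 (SE 0.106, adjusted p 1.01e-07 by edgeR's quasi-likelihood test with Benjamini-Hochberg adjustment), followed by Prph with 0.87 (4.41e-06), Ina with 0.77 (8.25e-06) and Nefh with 0.62 (0.000303), each above 0 in 3 of 3 cultures. Nes was at 0.31 (95% interval from just under 0 to 0.61, adjusted p 0.068) with 0.37, 0.42 and 0.12 by culture; it was called without knockout neurite 3 (0.33, adjusted p 0.00705, of 0.00705 to 0.201 over all omissions) and without the filter on low counts (0.37, 0.000705, of 0.000705 to 0.94 over the planned settings). Nefh was not called with upper-quartile scaling (0.32, 0.0125) or with library totals (0.28, 0.0396), and Nes reversed to -0.03 with library totals. On plain TPM, with the median gene at -1.49, all 5 were negative: Nefh -0.99, Ina -0.78, Prph -0.71, Nes -1.31 and Vim -0.42.

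**Figure D2:**
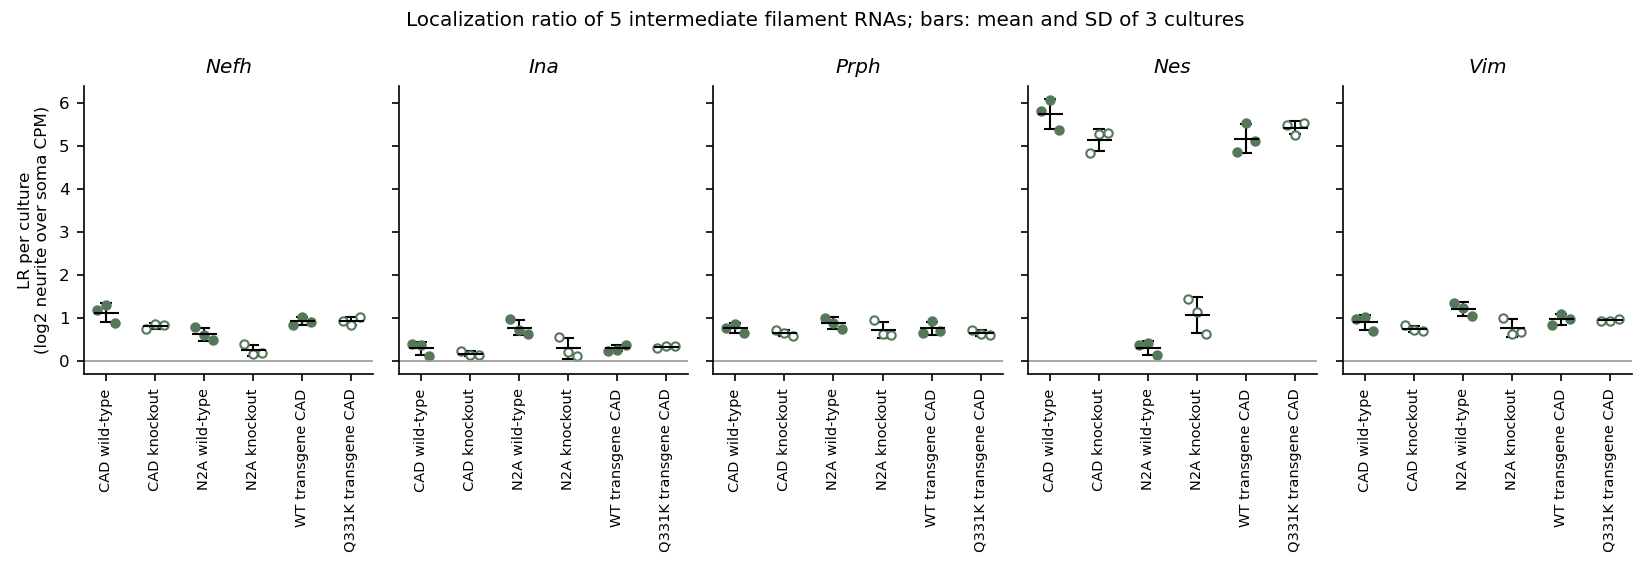
LR of the 5 detected members by culture (points; log2 of neurite over soma CPM, scaled with TMM), with mean and SD of 3 cultures (bars). Nes lies at 4.83 to 6.06 in all CAD cultures and at 0.12 to 1.44 in N2A. On plain TPM the means of the other members, and of Nes in N2A, are negative, but not every single culture is.

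The next comparison asked what loss of TDP-43 did to these RNAs in each compartment of CAD cells. In soma 2 of the 5 tested members were called, both lower, against 22.8% of all tested genes; in neurites 4 of 5 were called, all lower, against 25.3%. Nes fell in neurites from 317.5 ± 73.5 TPM to 158 ± 26.5 TPM, where the knockout libraries read 128, 178 and 168 TPM. That was a log2 change of -1.21 (SE 0.128, 0.432 of wild-type, adjusted p 1.95e-06 by edgeR's quasi-likelihood test with Benjamini-Hochberg adjustment). In soma Nes went from 19.2 to 11.4 ± 1.16 TPM (10.4, 11.1 and 12.7), a change of -0.61 (SE 0.129, adjusted p 0.00168). The call in soma was lost without wild-type soma 3 (-0.53, adjusted p 0.0108) or without knockout soma 3 (-0.56, 0.0108), with 0.000414 to 0.0108 over all omissions.

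Vim, the partner of Nes in precursor filaments, changed by -0.61 in CAD soma (SE 0.0825, adjusted p 2.61e-05 by edgeR's quasi-likelihood test with Benjamini-Hochberg adjustment) and by -0.76 in neurites (SE 0.0826, 2.63e-06). Its libraries read 418, 579.7 and 695 TPM in wild-type soma and 279, 314 and 355 TPM in knockout soma. In neurites the knockout values, 196, 222 and 206 TPM, also lay below all 3 wild-type values. For Nes and Vim the genotypes did not overlap in either compartment, in TPM or in CPM.

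In CAD, Ina and Prph, subunits of mature neuronal filaments, were called lower in neurites but not in soma. In neurites Ina changed by -0.41 (adjusted p 0.00105) and Prph by -0.35 (0.00216), by edgeR's quasi-likelihood test with Benjamini-Hochberg adjustment; the genotypes did not overlap in scaled CPM but did in TPM. Prph was not called without wild-type neurite 3 (-0.34, adjusted p 0.0106), knockout neurite 1 (-0.33, 0.014) or knockout neurite 3 (-0.34, 0.0107), of 0.00173 to 0.014 over all omissions, or with library totals (-0.24, 0.028). In soma Ina changed by -0.28 (95% interval -0.46 to -0.11, adjusted p 0.0142) and Prph by -0.23 (-0.40 to -0.07, 0.0283), neither called. Ina in soma was called without wild-type neurite 1 (-0.31, 0.0088), wild-type neurite 2 (-0.31, 0.00863) or knockout soma 2 (-0.36, 0.00879), of 0.00863 to 0.0789 over all omissions. It was also called with DESeq2 (0.000977), a replicate block (-0.29, 0.00323), upper-quartile scaling (0.00685) and no filter on low counts (0.00782), of 0.000977 to 0.0195 over the planned settings, and with library totals (0.00523). Prph in soma was called with DESeq2 (-0.23, 0.000382, of 0.000382 to 0.0975). Nefh was not called, at 0.18 in soma (-0.01 to 0.36, 0.144) and -0.13 in neurites (-0.32 to 0.05, 0.253). In soma the genotypes did not overlap in scaled CPM for Nefh (higher in knockout), Ina and Prph (both lower), but did in TPM.

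Whether the ratio between compartments itself shifted was tested with a term for compartment by genotype. In CAD 0 of the 5 tested members were called by edgeR at an FDR of 0.01, against 0.432% of all tested genes; 2 were at an unadjusted p under 0.05, against 1824 of all 17343 tested genes, and DESeq2 called 0, against 211 genes. Nes had an LR change of -0.61 (95% interval -0.99 to -0.22, adjusted p 0.178) and Nefh one of -0.31 (-0.57 to -0.05, 0.374). The intervals were -0.40 to 0.10 for Vim, -0.37 to 0.13 for Ina and -0.34 to 0.12 for Prph. The LR of Nes by culture was 4.83, 5.27 and 5.29 in knockout and 5.80, 6.06 and 5.38 in wild-type.

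In N2A edgeR called 0 of the 5 tested members in soma and 0 in neurites, against 16.1% and 11.6% of all tested genes. At an unadjusted p under 0.05 there were 2 in soma and 3 in neurites, against 7514 and 5792 of all 17912 tested genes, and DESeq2 called 2 in each, against 3891 and 2717 genes. In soma Nes was at -0.56 (95% interval -0.87 to -0.25, adjusted p 0.0102 by edgeR's quasi-likelihood test with Benjamini-Hochberg adjustment); its knockout libraries, at 15.9, 16.4 and 18.3 TPM, all lay below the wild-type ones. Nefh in soma was at 0.44 (0.18 to 0.69, 0.0137), with 26.6, 27.2 and 36.4 TPM in knockout and 21.7, 25.8 and 26.2 TPM in wild-type, which did not overlap. In neurites Ina was at -0.39 (-0.61 to -0.18, 0.0127), Vim at -0.31 (-0.54 to -0.09, 0.0439) and Prph at -0.29 (-0.52 to -0.06, 0.0752), each lower in every knockout library in scaled CPM but not in TPM. Nes in neurites was at 0.23 (-0.08 to 0.54) and Nefh at 0.05 (-0.20 to 0.30). In soma the intervals were -0.09 to 0.36 for Vim, -0.12 to 0.32 for Ina and -0.36 to 0.11 for Prph.

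For the LR change in N2A, 0 of 5 members were called by edgeR, against 0.1% of all tested genes; 4 were at an unadjusted p under 0.05, against 5580 of all 17912 tested genes, and DESeq2 called 3, against 1445 genes. The LR of Nes was higher in knockout by 0.79 (95% interval 0.35 to 1.22, adjusted p 0.0386), with an LR of 1.44, 1.14 and 0.61 by culture in knockout. Ina was at -0.49 (-0.80 to -0.18, 0.0494), Vim at -0.45 (-0.77 to -0.14, 0.0627), Nefh at -0.39 (-0.75 to -0.03, 0.135) and Prph at -0.17 (-0.50 to 0.16, 0.482).

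In N2A some of these values were called with other settings. Nes in soma was called with DESeq2 (adjusted p 0.00187), a replicate block (-0.56, 0.00334), upper-quartile scaling (0.00386), length-scaled counts (0.00887) and no filter on low counts (4.04e-06), of 4.04e-06 to 0.0102 over the planned settings, and with library totals (0.00252). Nefh in soma was called with DESeq2 (0.000943), length-scaled counts (0.00942) and no filter (6.4e-05), of 6.4e-05 to 0.0295. Ina in neurites was called with DESeq2 (0.00133), a replicate block (-0.39, 0.00767), upper-quartile scaling (0.00449) and no filter (0.00214), of 0.00133 to 0.0362, and with library totals (0.00205). Vim in neurites was called with DESeq2 (0.00685, of 0.00685 to 0.116).

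In N2A, 3 libraries decided calls of members. Without knockout neurite 3, Nes was called for the LR change (0.96, adjusted p 0.00707) and in soma (-0.55, 0.000953), and so was Nefh in soma (0.45, 0.00993). Without knockout soma 1, Vim (-0.61, 0.00814) and Ina (-0.66, 0.00684) were called for the LR change, Nefh in soma (0.63, 0.000713) and Ina in neurites (-0.37, 0.00719). Ina in neurites was also called without wild-type soma 1 (-0.40, 0.00866). Over all omissions the adjusted p ran from 0.00707 to 0.119 for the LR change of Nes, from 0.00814 to 0.16 for that of Vim and from 0.00684 to 0.13 for that of Ina. In single compartments it ran from 0.000953 to 0.0875 for Nes in soma, from 0.000713 to 0.0509 for Nefh in soma and from 0.00719 to 0.0643 for Ina in neurites.

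The transgene experiment asked whether the Q331K mutation changes RNA placement. No member was called by edgeR for the LR change, in soma or in neurites (0 of 5 each), where 0, 0 and 0% of all tested genes were called (605, 995 and 1372 genes at an unadjusted p under 0.05; DESeq2 called 0, 0 and 10 genes). Of the members, 0 were at an unadjusted p under 0.05, and DESeq2 called 0. The lowest adjusted p of a member was 0.622. The libraries of the 2 groups did not overlap for Nes (lower with Q331K) and Vim (higher) in soma and Ina (higher) in neurites in scaled CPM, nor for Prph (lower) in neurites in TPM, though each of these overlapped in the other unit. Nes stood at 268, 278 and 284.5 TPM in Q331K neurites (277 ± 8.10) and at 251.5, 321 and 277 TPM in WT neurites (283 ± 35.1). Its neurite change was 0.00 (95% interval -0.27 to 0.27), its soma change -0.23 (-0.51 to 0.06) and its LR change 0.23 (-0.17 to 0.62). Prph and Vim, the 2 members of highest level, had neurite changes of -0.08 (-0.28 to 0.13) and 0.12 (-0.07 to 0.30). Nefh was at -0.13 in both compartments (soma -0.29 to 0.04, neurites -0.29 to 0.04), and Ina at 0.01 in soma (-0.13 to 0.15) and 0.05 in neurites (-0.09 to 0.19). In soma Prph was at 0.04 (-0.17 to 0.24) and Vim at 0.14 (-0.05 to 0.33). For the LR change the intervals were -0.23 to 0.23 for Nefh, -0.16 to 0.24 for Ina, -0.41 to 0.18 for Prph and -0.29 to 0.24 for Vim.

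**Figure D3:**
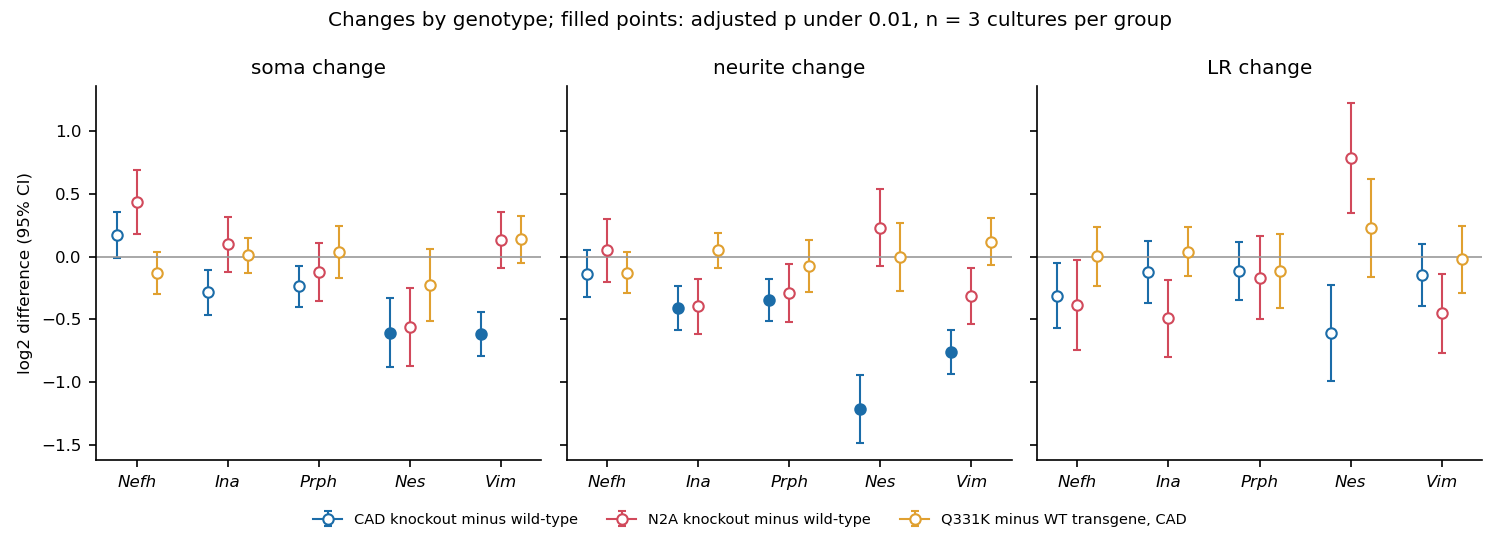
Change of the 5 detected members by genotype in soma, in neurites and in LR (points; log2 difference, scaled with TMM; bars are 95% intervals; filled points have an adjusted p under 0.01). In CAD knockout neurites Nes is at -1.21 and Vim at -0.76; all points of the Q331K comparison are open.

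CAD and N2A were compared in a joint fit of their 24 libraries, in which line and anything else that differed between the 2 experiments cannot be told apart. In wild-type soma 4 of 5 tested members were called (51.2% of all tested genes): Ina (-1.61, N2A minus CAD), Nefh (-1.56) and Vim (-0.57) were lower in N2A, and Prph was higher (0.35, adjusted p 0.00418 by edgeR's quasi-likelihood test with Benjamini-Hochberg adjustment). The call for Prph was lost without CAD wild-type soma 1 (0.0289) or 2 (0.0369) and without N2A wild-type soma 2 (0.0116) or 3 (0.0345), of 0.00124 to 0.0369 over all omissions, and without the filter on low counts (0.30, 0.0369, of 3.83e-07 to 0.0369 over the planned settings). In wild-type neurites 4 of 5 were called (47.1% of all tested genes): Nes by -5.30 (SE 0.178, adjusted p 4.63e-18), Nefh by -2.06, Ina by -1.12 and Prph by 0.47 (0.000277). Nes in soma differed by 0.15 (95% interval -0.16 to 0.46), and Vim in neurites by -0.25 (-0.46 to -0.04, adjusted p 0.0438). The latter was called lower with DESeq2 (-0.27, 0.00492) and upper-quartile scaling (-0.25, 0.00449), of 0.00449 to 0.722 over the planned settings, and turned to 0.20 with library totals.

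For the LR 1 of 5 members differed between the lines, against 18.4% of all tested genes. Nes had an LR difference of -5.45 (N2A minus CAD, SE 0.225, adjusted p 2.54e-14 by edgeR's quasi-likelihood test with Benjamini-Hochberg adjustment); the highest N2A wild-type culture, 0.42, was below the lowest CAD one, 5.38. Ina was at 0.49 (0.19 to 0.79, adjusted p 0.014) and was called without CAD wild-type soma 1 (0.56, 0.00938), N2A knockout soma 1 (0.50, 0.00516) or N2A knockout soma 3 (0.50, 0.00776), of 0.00516 to 0.0637 over all omissions. Nefh was at -0.49 (-0.82 to -0.17, 0.0214). With a block per culture Nefh (0.00471) and Ina (0.00961) were also called, which makes 3 of 5; over the planned settings the adjusted p ran from 0.000592 to 0.0393 for Nefh and from 0.00439 to 0.0617 for Ina. Vim was at 0.32 (0.02 to 0.62) and Prph at 0.12 (-0.17 to 0.41).

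The response to loss of TDP-43 also differed between the lines for some members. Tardbp RNA, summed over transgene and endogenous alleles, fell less in N2A. The difference of the changes (N2A minus CAD) was 0.82 in soma and 0.53 in neurites, and it does not measure how much protein was left. The adjusted p was 1.1e-05 and 0.00122 by edgeR's quasi-likelihood test in the joint fit. In soma 1 of 5 members was called, against 10.5% of all tested genes: Vim, with a difference of 0.83 (N2A minus CAD, SE 0.145, adjusted p 0.000264 by edgeR's quasi-likelihood test with Benjamini-Hochberg adjustment) in the joint fit; in the fits of each line alone it changed by -0.61 in CAD and by 0.14 in N2A. In neurites 1 of 5 was called, against 9.18% of all tested genes: Nes, with a difference of 1.498 (SE 0.212, adjusted p 1.68e-05) in the joint fit; in the fits of each line alone it changed by -1.21 in CAD and by 0.23 in N2A. Nefh, Ina and Prph were not called in either compartment. Vim in neurites was at 0.50 (adjusted p 0.0187 by edgeR's quasi-likelihood test) and not called. It was called with DESeq2 (0.48, 0.00129), a replicate block (0.50, 0.00679) and upper-quartile scaling (0.45, 0.00248). Without N2A knockout soma 1, Ina was called for the soma change (0.59, 0.00284, of 0.00284 to 0.12 over all omissions) and Vim for the neurite change (0.50, 0.00742, of 0.00742 to 0.0591). For the LR change edgeR called 0 of 5 members, against 0.203% of all tested genes; 1 was at an unadjusted p under 0.05, against 3649 of all 19700 tested genes, and DESeq2 called 1, against 198 genes. That member was Nes, at 1.37 (95% interval 0.75 to 1.99, adjusted p 0.0305), which was called without N2A knockout neurite 3 (1.55, 0.0021, of 0.0021 to 0.0801 over all omissions).

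Annotated transcripts numbered 1 each for Nefl, Nefh and Ina, 2 for Nefm, 4 for Prph, 3 for Nes and 6 for Vim. The most abundant Prph transcript was Prph-201, with 9 exons. Prph-202 and Prph-204, with 8 exons each, keep intron 4 of Prph-201 (chromosome 15, 99056937 to 99057032, 96 bases) inside an exon; they share 1860 bases and differ by 3 and 2, so their counts were added, a step chosen after seeing the shares. Keeping this intron is known to give a larger peripherin, which has been studied in ALS. In N2A soma the summed share of Prph TPM was 17.4, 18.9 and 17.3% in wild-type (17.9 ± 0.889, SD, n = 3) and 11.4, 11.3 and 11.4% in knockout. In CAD soma it was 9.44, 9.26 and 8.80% in wild-type and 7.67, 7.34 and 7.33% in knockout. Neither pair overlapped, and by estimated counts the mean shares were 19.7 against 12.5% in N2A and 10.1 against 8.24% in CAD. In neurites the shares were lower and closer. They were 5.58, 5.05 and 4.95% in CAD wild-type and 4.71, 4.49 and 4.83% in knockout, which did not overlap, and had means of 8.16 and 7.55% in N2A, which did. The change in share was not tested.

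**Figure D4:**
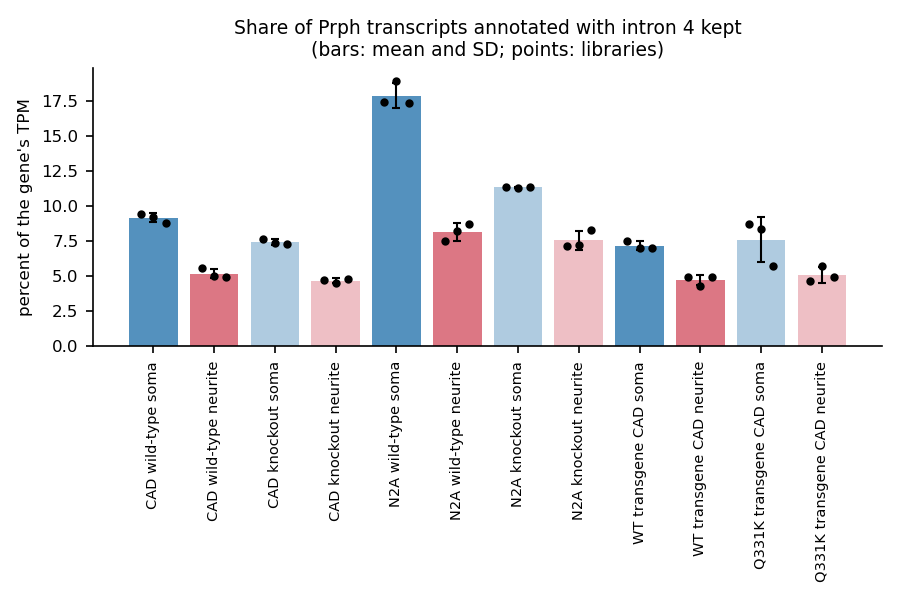
Share of Prph TPM in the annotated transcripts that keep intron 4, by group (bars, mean and SD; points, libraries; percent). N2A wild-type soma is at 17.9% and N2A knockout soma at 11.3%.

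For Nes, Nes-203 has 5 exons and Nes-201 keeps a 132-base intron of it (chromosome 3, 87976581 to 87976712); it was singled out after its values were seen. Nes-201 held 18.8, 19.6 and 19.1% of Nes TPM in CAD wild-type neurites and 23.9, 23.4 and 21.9% in knockout neurites, which did not overlap; in CAD soma, with 13.6, 17.5 and 18.6% against 18.9, 18.5 and 18.9%, they did. It was at most 1.59% in N2A. In the transgene experiment it was at 33.2 to 48.9%, but there 133618 transcripts were quantified and 135181 in the other 2, so that shares are not compared across them. For Vim, Vim-203, annotated as a retained intron, had 9.92 to 24.6% of TPM but 1.74 to 5.66% of estimated counts.

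TDP-43 binds GU-rich RNA, and short words taken as its binding words in the study are GTGTG, the shifted form TGTGT, and the variant GTATG. Their occurrences were counted on the sense strand of the longest annotated 3′ UTR of 20674 genes, of which 81.8% held at least 1; the median density was 4.27 per kb. Nefl held the first word at 3 positions and the shifted form at 3 in 1648 bases (3.64 per kb, percentile 42.4), and Nefm held them at 4 and 3 in 2234 bases (3.13 per kb). Prph had 6.49 per kb (percentile 71.1), with GTGTG at 2 positions in 308 bases, the highest density of the members on the longest 3′ UTR; on the 3′ UTR of each most abundant transcript Nefm had 6.63 and Prph 6.60 per kb. Nefh held the variant at 2 positions (3.38 per kb), Ina the shifted form at 2 and the variant at 2 (2.39 per kb), and Nes a single GTGTG in 421 bases (percentile 28.7). Vim, lower in both compartments of CAD knockout cells, held none. Binding was not measured. A site each of the light neurofilament, of Prph and of the member with the largest change is given 5′ to 3′ with the words in capitals, from GRCm38 chr14:68088392-68088421 plus, chr15:99058816-99058845 plus and chr3:87980133-87980162 plus.
Nefl: agctcatgaatgGTGTGTtgtctgcttaat
Prph: cccgatgcatagGTGTGacccatagctttc
Nes: tctcgtggagagGTGTGgctggctgagaca

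Genes whose levels followed those of a member most closely over the 12 group means, among 18045 genes, were Akap12 (r 0.993) and Map2k7 (0.976) for Nes, and Lhx9 (0.994) and Ykt6 (0.994) for Ina. They were Iqgap2 (0.982) and Gnas (0.977) for Nefh, Mvp (0.976) and Klf5 (0.975) for Prph, and Stx8 (0.96) and 9030612E09Rik (0.951) for Vim. None is given for Nefl and Nefm, whose group means rest on a few reads. Between members, Nefh and Ina had r 0.906, Ina and Vim 0.632, and Nes and Prph -0.653. Group means share libraries and lines, so no p is given.

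Of 17 other intermediate filament genes, 10 were tested. List counts stand against 41.4% of all tested genes called in either direction for the LR in CAD and 59.2% in N2A, 22.8 and 16.1% in knockout soma, and 25.3 and 11.6% in knockout neurites. In CAD 4 had a higher and 1 a lower LR, and in knockout 2 rose and 4 fell in soma and 3 rose and 3 fell in neurites; in N2A the counts were 5 and 2 for the LR, 3 and 0 in soma and 1 and 0 in neurites. Synm (synemin), a partner of Nes and Vim in filaments, stood out after its values were seen: it was at 157 TPM in CAD wild-type neurites and 20.0 TPM in soma (LR 4.70, adjusted p 3.77e-12 by edgeR's quasi-likelihood test), and at 5.74 and 24.7 TPM in N2A (-0.57, 0.000233). In CAD knockout it fell to 63.6 TPM in neurites (-1.49, 6.24e-07) and 10.3 TPM in soma (-0.75, 0.000625). Iffo2 (-0.67) also fell in CAD soma, and Krt7 was called lower there (-1.94) from only 0.299 TPM to 0.0706 TPM, whereas Krt8 (1.85), Lmnb1 (0.58) and Lmnb2 (0.46) rose in N2A soma. Gfap and Des, partners of Vim in other cells, reached 3.01 and 1.66 TPM at most.

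Among 29 linkers, kinases, chaperones and turnover factors of filaments, 28 were tested in CAD and 27 in N2A; 10 and 14 had a higher LR and 3 and 5 a lower one, against 41.4 and 59.2% of all tested genes called. In knockout soma 4 rose and 3 fell in CAD and 6 rose and 3 fell in N2A, and in neurites 3 rose and 5 fell in CAD and 2 rose and 1 fell in N2A. Camk2b (1.15) and Hspb8 (1.08) rose and Stub1 (-1.04) fell in CAD soma; in N2A soma Cdk5r1 (0.85) and Hspb8 (0.66) rose and Stub1 (-0.88) fell, and Dst alone had a called LR change (0.94, adjusted p 0.00978). Of 12 filament transport motors 11 were tested, with 7 higher and 2 lower for the LR in CAD (median 2.44) and 4 and 2 in N2A (median 0.06). In knockout 1 rose and 1 fell in CAD soma, 1 rose and 2 fell in CAD neurites, 2 rose in N2A soma and 5 rose in N2A neurites. Kif5a (0.57) and Dync1i2 (-0.27) were the called motors in CAD soma, and Myo5a (0.43) and Dctn1 (0.34) those in N2A soma. Kif5c (4.72), Kif1a (4.52) and Kif5b (4.41), chosen after their values were seen, had the highest LR in CAD. Of 7 proteins reported to bind Nefl mRNA, all tested, 3 were higher and 1 lower for the LR in each line, where 41.4 and 59.2% of all tested genes were called; in knockout soma 2 rose and 1 fell in CAD and 3 rose and 1 fell in N2A, and in neurites 1 rose and 1 fell in each. The 1 that fell was Tardbp, whose transgene was switched off, in all 4 of these comparisons. Arhgef28 rose in CAD soma (0.30) and Ywhaq in N2A soma (0.45), and Tardbp was the only gene of this list with a called LR change (0.63 in CAD, adjusted p 0.005). In the comparisons of Q331K with WT (LR change, soma and neurites) edgeR called no gene of these 4 lists, where 0, 0 and 0% of all tested genes were called.

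Marker lists describe the cells. The 10 neuron markers summed to 647 to 1835 TPM by group, led by Tubb3 or Stmn2, and 9 were at 1 TPM or more in each group, with Rbfox3 near 0. In CAD knockout soma Mapt (-0.82) and Stmn2 (-0.50) fell and Elavl4 (0.46) rose, and in N2A knockout soma Elavl4 (0.59), Tubb3 (0.49) and Gap43 (0.43) rose. Of 9 tested, 6 were not called in CAD soma and 6, not all of them the same, in N2A soma. The list medians were -0.005 in CAD and -0.057 in N2A. In knockout neurites 1 rose and 2 fell in CAD, and 0 rose and 2 fell in N2A. The 9 catecholaminergic markers summed to 240 to 813 TPM, led by Hand2 in CAD and Phox2a in N2A, with Slc18a2 near 0. Dbh (1.42) rose and Slc18a1 (-1.20) and Th (-0.75) fell in CAD soma, and Phox2a (0.96) and Hand2 (0.57) rose in N2A soma. Of 8 tested, 1 rose and 2 fell in CAD soma (median 0.061), and 3 rose and 0 fell in N2A soma (median -0.037). In knockout neurites 1 rose and 2 fell in CAD, and 1 rose and 1 fell in N2A. The 4 cholinergic markers summed to 12.9 to 143 TPM, led by Ache, which changed by -0.84 in CAD soma and -1.20 in N2A soma; Slc18a3 changed by -0.80 in CAD. The 10 glia markers summed to 1.49 to 12.2 TPM, with Olig1, Olig2 and Aqp4 near 0. The 8 fibroblast and muscle markers summed to 0.849 to 25.4 TPM, led by Dcn, Col1a1 or Acta2, with Myod1 near 0. Of 5 nuclear RNAs 3 were lower in neurites in CAD wild-type and 5 in N2A wild-type, while of the 4 tested in WT transgene cells 0 were called (median LR -0.50), against 41.4, 59.2 and 27.5% of all tested genes called in either direction. Malat1 was at 231 TPM in CAD wild-type soma and 33.8 TPM in neurites.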

How the data were processed

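Polyadenylated RNA from soma and neurites of mouse CAD and N2A cells was sequenced. The authors trimmed the reads with cutadapt and quantified annotated transcripts with Salmon, which gave the deposited estimated count and TPM of each transcript. Transcripts were summed to genes with GENCODE vM21 (GRCm38), and the gene sums of the estimated counts were rounded. The transgene experiment lists 133618 transcripts and the other 2 list 135181. Transcripts without a match there held at most 0.129% of a library's counts.

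Total estimated counts were 9783050 to 32895542 per library. Each experiment was fitted with 4 group means in edgeR 4.0.16 (R 4.3.3) with TMM scaling, its default filter on low counts, quasi-likelihood tests, Benjamini-Hochberg adjustment over all tested genes and an FDR of 0.01. The contrasts were neurite minus soma in control cells (LR), knockout minus wild-type or Q331K minus WT in each compartment, and their interaction. A joint fit of 8 groups compared N2A with CAD. LR by culture took soma and neurite libraries of the same number as a culture and used scaled CPM plus 0.5, and 95% intervals use the t quantile at the degrees of freedom of the quasi-likelihood test. Levels are TPM (mean, SD, n = 3).

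The 7 members and the lists (other intermediate filament genes; filament linkers, kinases, chaperones and turnover; filament transport motors; proteins reported to bind Nefl mRNA; markers of neurons, catecholaminergic and cholinergic cells, glia, and fibroblasts and muscle; nuclear RNAs) were chosen with earlier results of these data known. Besides the members and Tardbp, genes are named by this rule: from each list, for each experiment, up to 3 called genes with the largest LR change and up to 3 with the largest soma change, and for each member the 2 genes of highest Pearson r of log2(TPM + 0.1) over the 12 group means, among genes with a mean of at least 1 TPM in a group. Markers named for their level were chosen after their levels were seen, as were the other genes where the text says so. Some genes that the rule names are not reported here, and none is given for Nefl and Nefm.

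The other settings planned were DESeq2 1.42.0, an FDR of 0.05, upper-quartile scaling, length-scaled counts, no filter, a replicate block, a block per culture, LR from TPM, isoform shares by estimated counts and leaving out each library; library totals, and LR from TPM minus the median gene, were chosen after seeing the data. Python 3.11.15 with pandas 2.3.3, numpy 2.4.6 and matplotlib 3.10.9 did the rest. Protein sequences were not used here. The series' human motor neuron, reporter, metabolic labelling and binding assays were not used.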

Additional observations from a re-analysis of the deposited data

Results flagged for a closer look

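Nes differed between the lines in its LR. In wild-type cells the joint edgeR fit gave N2A minus CAD -5.45 on the log2 scale (SE 0.225, adjusted p 2.54e-14); the fits of each line alone gave an LR of 5.76 in CAD and 0.31 in N2A. All 3 N2A cultures lay below all 3 CAD cultures.

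Vim differed between the lines in its change in soma when TDP-43 was lost. The difference of the changes in the joint fit was 0.83 (SE 0.145, adjusted p 0.000264); the fits of each line alone gave changes of -0.61 in CAD and 0.14 in N2A.

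Nes differed between the lines in its change in neurites. The joint fit gave a difference of the changes of 1.498 (SE 0.212, adjusted p 1.68e-05), and the fits of each line alone gave changes of -1.21 in CAD and 0.23 in N2A. Line and experiment cannot be told apart in these comparisons.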

How the results depend on the processing

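Of 90 tested values of members, 76 kept their side of the threshold and, where called, their direction with an FDR of 0.05 (14 more were called), 77 with DESeq2 (13 more called), 87 with length-scaled counts (3 more), 81 with upper-quartile scaling (7 more, 2 fewer), 78 without the filter on low counts (9 more, 3 fewer) and 76 with library totals (7 more, 5 fewer, 2 reversed). Leaving out each library kept 1403 of 1440 values, with 18 newly called and 19 no longer called. Among the kept values, some that were not called changed sign: 2 with DESeq2, 8 with upper-quartile scaling, 1 without the filter, 10 with library totals and 21 when libraries were left out.

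The number of called members moved by more than 1.5 times, or away from 0, as follows. For the CAD soma change it went from 2 to 4 with an FDR of 0.05 and with DESeq2. For the N2A LR change it went from 0 to 2 with an FDR of 0.05, 3 with DESeq2 and 1 without the filter. For the N2A soma change it went from 0 to 2 with DESeq2, length-scaled counts, no filter or an FDR of 0.05, and to 1 with upper-quartile scaling or library totals. For the N2A neurite change it went from 0 to 2 with an FDR of 0.05 or DESeq2 and to 1 with upper-quartile scaling, no filter or library totals. For the LR of N2A minus CAD it went from 1 to 3 with an FDR of 0.05, 2 with DESeq2, upper-quartile scaling or no filter, and 4 with library totals. For the LR change of N2A minus CAD it went from 0 to 1 with DESeq2, no filter, an FDR of 0.05, length-scaled counts, upper-quartile scaling or library totals. The soma change of N2A minus CAD went from 1 to 2 with an FDR of 0.05 or no filter, and the neurite change from 1 to 2 with an FDR of 0.05, DESeq2 or upper-quartile scaling. Smaller moves were from 2 to 3 for the CAD soma change (upper-quartile scaling, no filter, library totals), from 4 to 3 for the CAD neurite change (library totals), from 5 to 4 for the LR in CAD (upper-quartile scaling, no filter) and in WT transgene cells (no filter), and from 4 to 3 (upper-quartile scaling, library totals) or 5 (no filter) for the LR in N2A. For N2A minus CAD they were from 4 to 3 in soma without the filter, and from 4 to 5 in neurites with an FDR of 0.05, DESeq2 or upper-quartile scaling. The cause was not tested in any of these, beyond the looser threshold itself.

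Soma and neurite libraries of the same number and genotype were taken as a culture for the LR by culture. Their deviations from the group mean correlated with a median r of 0.388 in CAD, 0.337 in N2A and 0.118 in the transgene experiment, and a lowest r of -0.109, 0.089 and 0.043. Libraries of the same number but different genotype had a median r of 0.2325, 0.335 and 0.1115. The correlations therefore do not show that a number marks a culture rather than a replicate set. With a replicate block, 85 of 90 values were kept and 5 more were called: Ina took the CAD soma change from 2 to 3, Nes the N2A soma change from 0 to 1 and Ina the N2A neurite change from 0 to 1, Ina the LR of N2A minus CAD from 1 to 2 and Vim its neurite change from 1 to 2. With a block per culture, 38 of 40 values were kept and the LR of N2A minus CAD went from 1 to 3 members.

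Without single libraries, the called members ranged from 1 to 3 for the CAD soma change, from 0 to 2 for the N2A LR change and soma change, and from 0 to 1 for the N2A neurite change. For N2A minus CAD they ranged from 1 to 2 for the LR, the soma change and the neurite change, and from 0 to 1 for the LR change. The other ranges were 4 to 5 for the LR in CAD, N2A and WT transgene cells, 3 to 4 for the CAD neurite change and 3 to 4 for N2A minus CAD in soma.

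Library totals without a scaling factor were added after seeing the data. The count for the LR went from 5 to 3 in CAD and in WT transgene cells, and Ina reversed to -0.39 and -0.24 there; the median of all genes was -0.69 and -0.53, and -0.37 in N2A. Upper-quartile scaling moved that median to -0.33 in N2A. With LR from TPM, 26 of 30 values reversed (the cause was not tested), and the median gene lay at -0.97 or lower. For Nefh, Ina, Prph and Vim they were -0.63, -1.44, -0.96 and -0.89 in CAD wild-type, -0.54, -1.16, -0.69 and -0.60 in CAD knockout, -0.99, -0.78, -0.71 and -0.42 in N2A wild-type and -1.05, -0.96, -0.54 and -0.53 in N2A knockout. They were -0.091, -0.645, -0.278 and -0.048 with Q331K and -0.076, -0.699, -0.215 and -0.02 with WT. Nes was at -1.31 in N2A wild-type and -0.15 in N2A knockout. Measured from the median gene, an alternative added after seeing the data, 0 of 30 reversed, 7 moved beyond the spread of cultures and 23 stayed within it.

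Counts over all genes also moved with the settings, among them those for the LR change. In CAD 75 genes were called, against 170 with an FDR of 0.05, 211 with DESeq2, 280 without the filter, and 49 without wild-type soma 2. In N2A 18 were called, against 1515 with an FDR of 0.05, 1445 with DESeq2, 145 with upper-quartile scaling and 923 without the filter; without wild-type soma 2 there were 4 and without knockout soma 1 there were 1279. For Q331K, where edgeR called 0, there were without the filter 53 for the LR change, 141 in soma and 103 in neurites, and DESeq2 called 10 in neurites. The share of called genes that were higher in CAD neurites went from 57.3% to 6.28% with library totals.

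Isoform shares by estimated counts moved beyond the spread of cultures in 32 of 36 cases, and the number of 5-base words in the 3′ UTR of the most abundant transcript stayed within 1.5 times for 7 of 7 members, while the density for Nefm went from 3.13 to 6.63 per kb. Nefl and Nefm had at most 3 and 12 counts in a library, and no setting was applied to them.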
